A study of Rattus norvegicus with 84 samples.

Results

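The genes described here are chromatin proteins that write, read or erase histone marks, measured in 3 hippocampal regions of rats given a histone deacetylase inhibitor, with or without a session in the water maze. They were found by name among the symbols of the array's annotation: lysine acetyltransferases (Kat), nuclear receptor coactivators (Ncoa), bromodomain proteins (Brd), YEATS domain proteins (Yeats), inhibitor of growth proteins (Ing1 to Ing5), PHD finger proteins (Phf), lysine demethylases (Kdm) and lysine methyltransferases (Kmt, Ehmt, Setd and Suv). The rule found 58 symbols, each with 1 probe, and kept the 46 whose probe had a detection p under 0.01 on at least 7 of the 84 arrays. They are 46 of 11403 probes that passed the same limit. The symbols Brd3, Ing1, Kdm3b, Kdm4a, Kmt2d, Ncoa2, Phf10, Phf11, Phf19, Phf21b, Phf8 and Yeats2 were detected on 0 arrays, and the acetyltransferases Crebbp and Ep300 were not analysed here. No member passed through 1 group alone, 35 were detected on all 84 arrays, and Phf2, Kat6a, Suv39h2, Kdm1b, Ncoa5 and Ing5 were detected on 8, 26, 26, 35, 40 and 70. Since the set holds 12 methyltransferases and readers as well as demethylases and acetyltransferases, it is called here by its wider content, chromatin writers, readers and erasers.

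Acetyl groups on histone tails are placed by acetyltransferases, often with coactivators such as the Ncoa proteins, and are bound by bromodomain and YEATS domain proteins. Methyl groups are placed by methyltransferases, removed by demethylases, and bound by many PHD finger and ING proteins, several of which sit in acetyltransferase or deacetylase complexes. In the hippocampus, histone acetylation and methylation change with neuronal activity and learning, and inhibitors of histone deacetylases raise acetylation.

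The study used 28 male rats of the F344xBN hybrid, 7 months old, in 4 groups of 7. SAHA, a histone deacetylase inhibitor also known as vorinostat, was injected into the abdomen at 50 mg/kg in undiluted DMSO, and vehicle rats received the same volume of DMSO. Death followed 90 min after the injection. RPC rats were tested in a variant of the Morris water maze with 17 trials, beginning 10 min after the injection and ending in a probe trial of 60 s just before death. They had also been trained in the maze over 8 days, finished a week earlier. HC rats stayed in their home cage and had no maze training, so a difference between RPC and HC rats holds the earlier training as well as the session. The groups were SAHA RPC, SAHA HC, vehicle RPC and vehicle HC, and in each rat the microdissected CA3, CA1 and dentate gyrus (DG) were measured, giving 7 arrays in each of 12 groups. Each sample is a piece of tissue, in which fewer cells of a type and less RNA per cell cannot be told apart.

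Between 35.4% and 50.0% of probes were detected per array, and the mean raw signal of an array ran between 428 and 905. Markers went against 2 of the region labels. The mean log2 level of the 5 CA1 neuron markers measured (of 6 listed, Fibcd1, Mpped1, Pou3f1 and Wfs1 among them) had group medians of 5.89 to 6.17 in samples labelled CA1 and 8.93 to 9.00 in samples labelled DG. The 3 granule cell markers measured (of 6 listed, Prox1 and C1ql2 among them) had group medians of 8.53 to 8.64 in samples labelled CA1 and 6.51 to 6.96 in samples labelled DG. All 28 arrays labelled DG, but 0 of the 28 labelled CA1, detected Fibcd1 and Mpped1. Of 4 CA3 markers, 3 were higher under the CA3 label than under either other label. Regions are therefore called "labelled CA1", "labelled CA3" and "labelled DG" throughout. The correlation with the rest of the region was low on 11 arrays, of which 7 were RPC arrays labelled CA3 (3 SAHA and 4 vehicle), 3 were labelled CA1 and 1 was labelled DG. Some calls change without them, as given below.

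The promoters of Kdm6b, Phf13 and Yeats4 are shown because Kdm6b was called between RPC and HC rats in 2 regions, and Phf13 and Yeats4 were the members called between SAHA and vehicle rats. Each runs 5′ to 3′ on the gene's strand, and covers 250 bases before and 50 bases after the start given by RefSeq in build GRCr8 of the rat genome. Capitals mark TGACG or its reverse complement, the short form of the cAMP response element. The Kdm6b promoter lies at chr10:54640965-54641264, the Phf13 promoter at chr5:167784028-167784327 and the Yeats4 promoter at chr7:54751312-54751611, all on the minus strand.
Kdm6b: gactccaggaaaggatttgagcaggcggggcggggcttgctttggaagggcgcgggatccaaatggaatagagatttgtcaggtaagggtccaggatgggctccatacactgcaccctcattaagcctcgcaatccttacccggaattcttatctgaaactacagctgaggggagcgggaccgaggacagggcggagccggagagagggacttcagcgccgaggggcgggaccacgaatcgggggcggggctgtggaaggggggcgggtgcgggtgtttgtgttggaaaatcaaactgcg
Phf13: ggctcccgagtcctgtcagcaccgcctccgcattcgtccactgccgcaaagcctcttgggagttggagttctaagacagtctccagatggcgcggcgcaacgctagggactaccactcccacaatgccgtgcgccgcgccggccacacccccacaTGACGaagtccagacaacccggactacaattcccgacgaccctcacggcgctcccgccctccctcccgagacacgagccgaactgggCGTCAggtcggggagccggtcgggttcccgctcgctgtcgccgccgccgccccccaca
Yeats4: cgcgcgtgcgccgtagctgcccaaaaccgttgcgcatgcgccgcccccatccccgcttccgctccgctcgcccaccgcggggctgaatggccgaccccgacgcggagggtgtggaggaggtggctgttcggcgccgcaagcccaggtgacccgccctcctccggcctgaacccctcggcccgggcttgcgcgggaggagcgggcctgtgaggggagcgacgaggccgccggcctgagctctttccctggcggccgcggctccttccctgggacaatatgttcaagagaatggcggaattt
The full cAMP response element (TGACGTCA), its short form (TGACG, which every full element contains), the AP-1 element (TGANTCA) and the EGR element (GCGTGGGCG) were searched on both strands. The Phf13 window held the short form at 2 places, with first bases at -95 and -8 from the start. The Kdm6b and Yeats4 windows held none of the 4 motifs. Of 41 members with a promoter in the table, 17 held the short form, 3 the full element, 0 the AP-1 element and 1 the EGR element. Among all 33469 promoters of that length, the shares were 21.2% for the short form, 1.83% for the full element, 7.33% for the AP-1 element and 0.544% for the EGR element. These shares take every promoter entry, also of genes not detected here, while each member is counted with a single promoter. The sets are therefore unlike, and no enrichment was tested. Counting the averaged contrasts described further on, 12 members passed a test between drug or behaviour groups and 11 of them had a promoter. The short form was in 5 of these, Kdm5b, Kmt5c, Ncoa1, Phf13 and Phf3. These matches describe letters in the window, and no binding was measured.

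Kdm6b, a demethylase that removes the methyl mark set by Polycomb on histone H3, was higher after the maze in labelled DG and labelled CA1. In labelled DG its normalized log2 intensity was lowest at 8.14, median 8.31 and highest at 8.42 in vehicle RPC rats, against 7.00, 7.52 and 7.65 in vehicle HC rats. In SAHA rats of that region it was 7.89, 8.05 and 8.18 in RPC rats, against 6.88, 7.30 and 7.69 in HC rats. All 7 RPC arrays lay above all 7 HC arrays under either injection. The difference of RPC and HC rats was 0.89 ± 0.10 on the log2 scale in vehicle rats (SE, n = 7 each, 1.85-fold; limma, adjusted p = 7.4e-07) and 0.78 ± 0.10 in SAHA rats (1.71-fold; limma, adjusted p = 1.21e-05). Kdm6b was the only member called in labelled DG in either comparison, where 0.322% of all probes were called in vehicle rats and 1.45% in SAHA rats. A call means an adjusted p under 0.05 over all probes tested.

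In labelled CA1, Kdm6b was lowest at 7.88, median 8.05 and highest at 8.44 in vehicle RPC rats, against 7.35, 7.52 and 7.77 in vehicle HC rats. The groups did not overlap, and the difference was 0.58 ± 0.11 (n = 7 each; limma, adjusted p = 0.00394). In SAHA rats the same region had 7.52, 7.94 and 8.16 in RPC rats, against 7.11, 7.48 and 7.79 in HC rats. Those groups overlapped, and the difference of 0.40 ± 0.11 did not pass (limma, adjusted p = 0.0525), though it did in 5 of 10 alternative settings. The alternatives include a second, wider cut for low correlation. In labelled CA1 both cuts left out the same arrays and are the same fit. In labelled DG the wider cut left out no array and repeats the main fit, so such tallies do not count separate fits. In labelled CA3 the means were 7.52 ± 0.26 in vehicle RPC rats and 7.39 ± 0.18 in vehicle HC rats (SD, n = 7 each), and 7.48 ± 0.21 in SAHA RPC rats and 7.32 ± 0.19 in SAHA HC rats. Neither difference there, 0.14 ± 0.12 or 0.16 ± 0.12 (SE), was called, and 7 of the 14 RPC arrays of that region are among those with a low correlation. The 3 calls of Kdm6b held in 10 of 10 alternative settings and in 14 of 14 fits that left out 1 array.

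**Figure D1:**
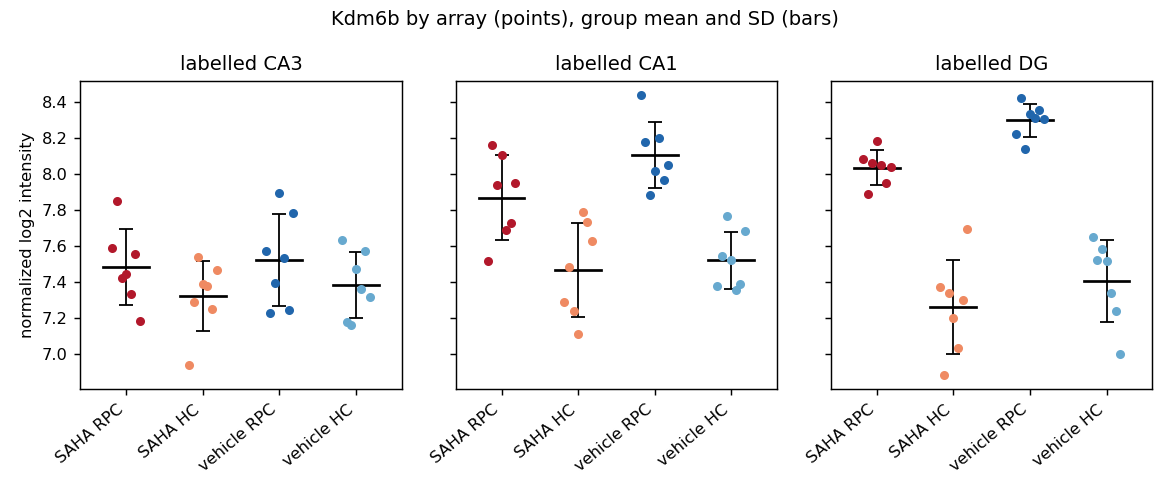
Normalized log2 intensity of Kdm6b (y axis) on each array (points) in SAHA RPC, SAHA HC, vehicle RPC and vehicle HC rats (x axis), in samples labelled CA3, CA1 and DG; lines and bars are group means and SDs, n = 7. In labelled DG every RPC array lies above every HC array under both injections, and in labelled CA3 the groups overlap.

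The effect of the maze on Kdm6b in vehicle rats differed among the 3 regions (limma F test over 84 arrays, adjusted p = 0.0119). It was 0.14 in labelled CA3, 0.58 in labelled CA1 and 0.89 in labelled DG. That test was lost without the 11 arrays of low correlation (adjusted p = 0.069) and with median scaling of the arrays (adjusted p = 0.0714). Kdm6b was not called between SAHA and vehicle rats of any region in the main setting. The largest difference within HC or RPC rats, SAHA against vehicle in RPC rats of labelled DG, was -0.26 ± 0.10 (limma, adjusted p = 0.515). Averaged over HC and RPC rats it was -0.20 ± 0.07 in that region (limma, adjusted p = 0.208), and with array weights that average was called, at -0.25 (limma, adjusted p = 0.0277).

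After the maze, 4 of 45 tested members were called in labelled CA1 of vehicle rats, where 6.44% of all probes were, 2.46% higher and 3.98% lower. Besides Kdm6b, which rose, these were Ncoa6, Phf23 and Ncoa1, which were lower. The median difference over the members was -0.05, against -0.02 over all probes tested. Both called coactivators are partners of nuclear receptors: Ncoa6 belongs to complexes that methylate histone H3, and Ncoa1 binds steroid hormone receptors. All 3 tested Ncoa genes were at or below -0.18, and Ncoa5, with -0.18 ± 0.14, did not pass.

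Ncoa6 was lowest at 6.20, median 6.59 and highest at 6.94 in vehicle RPC rats of labelled CA1, against 6.71, 7.22 and 7.38 in vehicle HC rats. Most arrays were apart, with some overlap, and the difference was -0.58 ± 0.13 (limma, adjusted p = 0.0121, n = 7 each). Phf23, a PHD finger protein that binds methylated histone H3, was at 6.52, 6.71 and 7.00 in vehicle RPC rats, against 6.91, 7.10 and 8.25 in vehicle HC rats. The highest HC array stood well above the others, and the difference was -0.57 ± 0.15 (limma, adjusted p = 0.0213). Ncoa1 was at 10.15, 10.32 and 10.42 in vehicle RPC rats, against 10.32, 10.52 and 10.77 in vehicle HC rats. Its difference of -0.20 ± 0.06 (limma, adjusted p = 0.0472) was the smallest of the 4 and was called in 3 of 14 fits that left out 1 array, and it was lost without the arrays of low correlation (limma, adjusted p = 0.12). With median scaling the calls of Ncoa6, Phf23 and Ncoa1 were lost, leaving 1 member higher and 0 lower. Over all probes the share of higher calls in this comparison was 38.2% and became 99.2% with that scaling.

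In SAHA rats of labelled CA1, 3 of 45 members were called between RPC and HC rats, against 2.51% of all probes, 1.76% higher and 0.746% lower. Phf3, a PHD finger protein that binds RNA polymerase, was lower, as was Kdm5b, which removes methyl groups from histone H3 at active promoters. Setd5, a SET domain protein, was higher. Phf3 was at 8.19, 8.36 and 8.60 (lowest, median, highest) in SAHA RPC rats, against 8.63, 8.82 and 8.92 in SAHA HC rats. The groups did not overlap, and the difference was -0.39 ± 0.09 (limma, adjusted p = 0.0127). Kdm5b was at 6.36, 6.48 and 6.56 in SAHA RPC rats, against 6.47, 6.92 and 7.45 in SAHA HC rats, a difference of -0.48 ± 0.12 (limma, adjusted p = 0.0239). The HC arrays spread widely and overlapped the RPC arrays only at their low end.

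Setd5 was at 11.20, 11.32 and 11.49 in SAHA RPC rats, against 10.89, 11.12 and 11.17 in SAHA HC rats. The groups did not overlap, and the difference was 0.26 ± 0.07 (limma, adjusted p = 0.0345). Its call was kept in 7 of 14 fits that left out 1 array, and that of Kdm5b in 9 of 14. With median scaling, 1 member was higher and 1 lower, Kmt5c and Kdm5b. Kmt5c, which methylates histone H4, had differences of 0.39 ± 0.11 in SAHA rats (limma, adjusted p = 0.0583) and 0.34 ± 0.11 in vehicle rats (limma, adjusted p = 0.0673) in the main setting. Without the arrays of low correlation both were called, at 0.38 in SAHA rats (limma, adjusted p = 0.0208) and 0.42 in vehicle rats (limma, adjusted p = 0.0205).

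**Figure D2:**
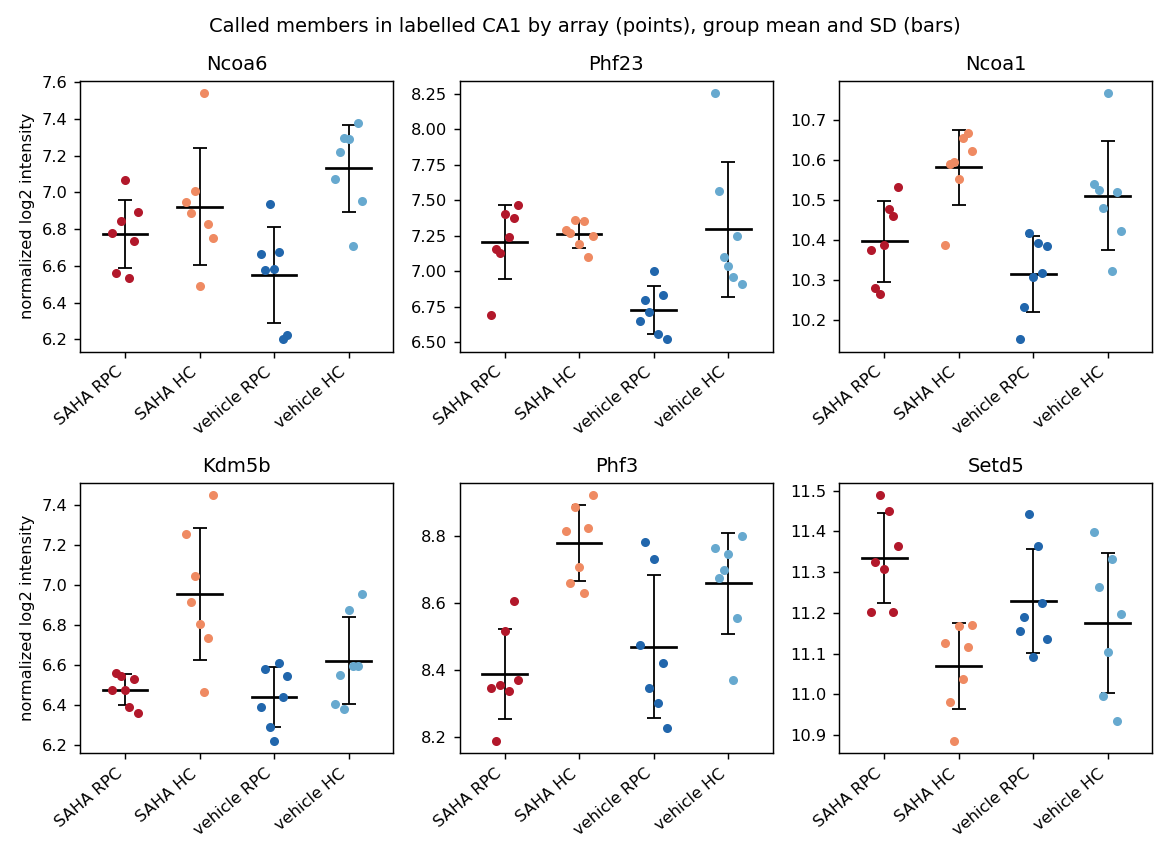
Normalized log2 intensity (y axis) of 6 members called between RPC and HC rats in labelled CA1, on each array (points) of the 4 groups (x axis); lines and bars are group means and SDs, n = 7. Ncoa6, Phf23 and Ncoa1 were called in vehicle rats and Kdm5b, Phf3 and Setd5 in SAHA rats, and Phf3 and Setd5 do not overlap between SAHA RPC and SAHA HC.

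Averaged over SAHA and vehicle rats, a contrast chosen after the other results were seen, RPC rats differed from HC rats in 9 of 45 members of labelled CA1, 3 higher and 6 lower, against 13.7% of all probes (6.42% higher and 7.31% lower). The 3 that rose were Kdm6b by 0.49 ± 0.08, Kmt5c by 0.37 ± 0.08 and Setd5 by 0.16 ± 0.05. The 6 that fell were Ncoa6, Kdm5b, Phf23, Phf3, Brd9, a subunit of a chromatin remodelling complex, and Ncoa1, by 0.36, 0.33, 0.31, 0.29, 0.21 and 0.19. With median scaling the split was 2 higher and 1 lower. The call of Phf23 held in 2 of 10 alternative settings and 9 of 28 fits that left out 1 array, that of Setd5 in 5 and 24, and that of Brd9 in 7 and 28. Without the arrays of low correlation these 3 were lost (limma, adjusted p = 0.0806 for Phf23, 0.0568 for Setd5 and 0.0555 for Brd9). In labelled DG the same contrast called 2 of 46 members, against 4.05% of all probes: Kdm6b at 0.83 ± 0.07, and Kdm4c, a demethylase of histone H3, at -0.17 ± 0.05 (limma, adjusted p = 0.0454). The call of Kdm4c held in 5 of 10 alternative settings and 11 of 28 fits that left out 1 array. Among those 5 settings is the wider cut for low correlation, which repeats the main fit in this region. In labelled CA3 it called 0 of 42, against 0.123% of all probes. There 12 of the 42 had an unadjusted p under 0.05, against 19.8% of all probes.

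Cell type markers were read beside these differences. In labelled CA1 of vehicle rats, 1 of 5 tested astrocyte markers, Gja1, was higher after the maze, by 0.83, and the mean log2 level over the 5 markers ran between 12.66 and 12.84 in vehicle RPC rats and between 12.39 and 12.65 in vehicle HC rats. In labelled DG of SAHA rats, 1 of 5 microglia markers, C1qb, was called higher. The 5 general neuron markers had a median difference of -0.04 in labelled CA1 and -0.03 in labelled DG of vehicle rats. Their part in the results above was not tested.

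No member was called between RPC and HC rats of labelled CA3, against 0.0189% of all probes in vehicle rats and 0.0283% in SAHA rats. Before adjustment, 8 of 42 members had a p under 0.05 in vehicle rats and 1 in SAHA rats, against 19.8% and 3.95% of all probes. The 3 with the smallest p in vehicle rats were Kmt5c at -0.32 ± 0.10, the BET bromodomain protein Brd2 at 0.31 ± 0.10 and the acetyltransferase Kat7 at 0.22 ± 0.07, all with a limma adjusted p of 0.247. In SAHA rats they were Phf12, a partner of the Sin3 deacetylase complex, at 0.24 ± 0.11, Kat7 at 0.13 ± 0.07 and Ncoa5 at -0.40 ± 0.24. With a random replicate block over all 84 arrays, 7 members were called in vehicle rats: Brd2, Brd9, Kat7, Kdm2a, Kmt5c, Ncoa5 and Setd5, with limma adjusted p between 0.00998 and 0.0484. The share of all probes called in that fit was not counted, so these 7 cannot be set against it. That fit also estimated the variance of a probe over all regions together, where the main fit used labelled CA3 alone. Its block correlation was -0.0108, and the part of either in these calls was not tested. With array weights Kmt5c was called in vehicle rats, at -0.41 (limma, adjusted p = 0.0206).

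The effect of the maze in vehicle rats differed among regions in 6 of 46 members, against 5.52% of all probes. Besides Kdm6b they were Phf23, Phf12, Brd2, Kmt5c and Brd9, with limma adjusted p between 0.0218 and 0.0442. Phf23 was at 0.40, -0.57 and -0.15 in labelled CA3, CA1 and DG. Phf12 was at 0.23, -0.50 and 0.10 in the same order, Brd2 at 0.31, -0.17 and 0.13, and Brd9 at 0.24, -0.22 and 0.05. Kmt5c ran the other way, at -0.32, 0.34 and 0.13. Each of these 5 had opposite signs in labelled CA3 and labelled CA1. Without the 11 arrays of low correlation 0 of the 46 were called, and with median scaling 0. Without the arrays of vehicle RPC replicate 6 in every region, 0 were called. The labelled CA3 array of that number has the lowest correlation of all.

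Few members were called between SAHA and vehicle rats. In RPC rats of labelled CA1, 2 of 45 were called, against 0.0605% of all probes. Phf13, a PHD finger protein that binds methylated histone H3, was at 8.52, 9.16 and 9.32 (lowest, median, highest) in SAHA RPC rats, against 8.43, 8.60 and 8.84 in vehicle RPC rats. Of the 7 SAHA arrays, 6 lay above all vehicle arrays, and 1, replicate 1, lay among them. The difference was 0.47 ± 0.09 (1.38-fold; limma, adjusted p = 0.0369).

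Yeats4, a reader of acetylated histone H3 in acetyltransferase and remodelling complexes, was at 9.91, 9.95 and 10.32 in SAHA RPC rats of labelled CA1, against 10.23, 10.31 and 10.34 in vehicle RPC rats. Again 6 of 7 SAHA arrays lay beyond all vehicle arrays and replicate 1 lay among them. The difference was -0.31 ± 0.06 (limma, adjusted p = 0.0468). The call of Phf13 was kept in 4 of 10 alternative settings and 4 of 14 fits that left out 1 array, and that of Yeats4 in 5 of 10 and 2 of 14. Both were lost without the 3 arrays of low correlation labelled CA1 (limma, adjusted p = 0.0508 for Phf13 and 0.116 for Yeats4). Without SAHA RPC replicate 1, the differences were 0.56 for Phf13 (limma, adjusted p = 2.93e-05) and -0.36 for Yeats4 (limma, adjusted p = 0.00107). That array was not among those of low correlation and was picked for its values of these genes. Leaving it out must widen both differences, so these p-values are no separate test. Of 3 tested endothelial markers, 1, Cldn5, was lower in this comparison, and its part was not tested.

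The same array number stood apart in the other regions. SAHA RPC replicate 1 had the lowest Phf13 of its group in labelled CA3 (8.45) and labelled DG (8.26), and the highest Yeats4 in both (10.35 and 10.43). The labels do not state that arrays of 1 number come from 1 rat. Leaving it out, Yeats4 in labelled DG of RPC rats had a difference of -0.31 (limma, adjusted p = 0.00388), where it was -0.26 ± 0.06 with all arrays (limma, adjusted p = 0.0819). Phf13 in that comparison stood at 0.31 without it (limma, adjusted p = 0.164). These fits too leave out an array picked for its values, and are no separate test.

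Phf13 was higher and Yeats4 lower under SAHA in all 6 comparisons, although most did not pass. In HC rats of labelled CA1, Phf13 was at 8.78, 9.02 and 9.07 in SAHA rats, against 8.49, 8.62 and 8.73 in vehicle rats, with no overlap, and a difference of 0.36 ± 0.09 (limma, adjusted p = 0.247). In HC rats of labelled DG the groups of Yeats4 did not overlap either, at 10.01, 10.15 and 10.21 in SAHA rats, against 10.26, 10.31 and 10.40 in vehicle rats, a difference of -0.19 ± 0.06 (limma, adjusted p = 0.387). Phf13 in that comparison had a difference of 0.40 ± 0.09 (limma, adjusted p = 0.105), and was called without the 1 array of low correlation labelled DG, at 0.46 (limma, adjusted p = 0.0334). Averaged over HC and RPC rats, a contrast chosen after these results were seen, Phf13 was higher by 0.42 ± 0.06 in labelled CA1 (limma, adjusted p = 0.00122) and by 0.32 ± 0.07 in labelled DG (limma, adjusted p = 0.0181). Yeats4 was lower in labelled DG, at -0.23 ± 0.04 (limma, adjusted p = 0.00672), and stood at -0.18 ± 0.04 in labelled CA1 (limma, adjusted p = 0.0953). In labelled CA3 the averages were 0.21 ± 0.09 and -0.14 ± 0.04 and did not pass.

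Under these averaged contrasts, the members called were 2 of 46 for labelled DG (0.718% of all probes), 1 of 45 for labelled CA1 (0.0907% of all probes) and 0 of 42 for labelled CA3 (0.00944% of all probes). In labelled CA3, 3 of the 42 had an unadjusted p under 0.05, against 1.64% of all probes. With median scaling the averaged calls of Phf13 in labelled CA1 and Yeats4 in labelled DG were lost, at limma adjusted p values of up to 0.0962 and 0.0928 over the alternatives.

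**Figure D3:**
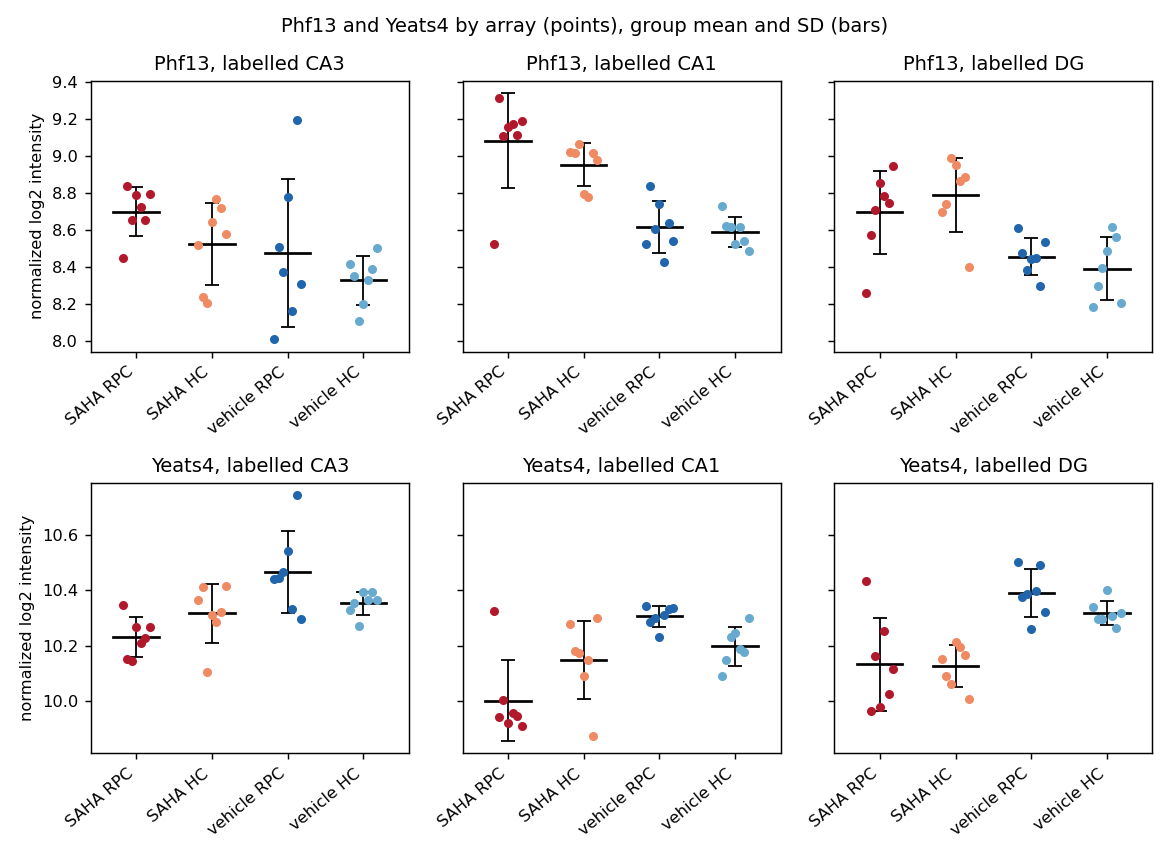
Normalized log2 intensity (y axis) of Phf13 (upper row) and Yeats4 (lower row) on each array (points) of the 4 groups (x axis), in samples labelled CA3, CA1 and DG; lines and bars are group means and SDs, n = 7. In SAHA RPC rats of labelled CA1, 6 of 7 arrays lie above the vehicle RPC arrays for Phf13 and below them for Yeats4.

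In HC rats, 0 of 45, 42 and 46 members were called between SAHA and vehicle in labelled CA1, CA3 and DG, against 0.0101%, 0.00944% and 0.0276% of all probes. Before adjustment, 4, 0 and 7 had a p under 0.05, against 7.16%, 0.491% and 6.47% of all probes. Besides Phf13 and Yeats4, the members with the smallest p were Kdm5b at 0.33 ± 0.12 and the demethylase family member Kdm8 at -0.22 ± 0.09 in labelled CA1, Phf14 at 0.11 ± 0.07 and the H3 methyltransferase Suv39h1 at -0.10 ± 0.07 in labelled CA3, and Kdm8 at -0.21 ± 0.07 in labelled DG. In RPC rats of labelled CA3 and labelled DG, 0 of 42 and 0 of 46 were called, against 0% and 0.0829% of all probes. An unadjusted p under 0.05 was found for 2 and 7, against 5.08% and 6.35% of all probes. There the smallest p beside Yeats4 and Phf13 belonged to the H4 methyltransferase Kmt5b in labelled CA3, at -0.32 ± 0.14, and to Brd8, a bromodomain subunit of an acetyltransferase complex, and Kdm6b in labelled DG, at -0.17 ± 0.05 and -0.26 ± 0.10. Brd8 was not called, though its 7 arrays in SAHA rats all lay below those of vehicle rats. How many of all probes separate in this way was not counted, here or for Phf13 and Yeats4 in HC rats.

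Whether SAHA acted differently in RPC and HC rats was tested as an interaction. It was called for 0 of 45, 42 and 46 members in labelled CA1, CA3 and DG, against 0.0101%, 0% and 0.00921% of all probes. Before adjustment, 7, 1 and 3 had a p under 0.05, against 8.36%, 2.19% and 2.14% of all probes. The smallest p in labelled CA1 belonged to Yeats4, at -0.26 ± 0.09, Phf12 at 0.70 ± 0.24 and the remodelling subunit Brd7 at 0.23 ± 0.09. In labelled CA3 they belonged to Yeats4 at -0.20 ± 0.08, Brd2 at -0.28 ± 0.14 and Kmt5c at 0.26 ± 0.14. In labelled DG they belonged to Brd8 at -0.17 ± 0.07, the acetyltransferase Kat2a at 0.17 ± 0.07 and Phf7 at 0.34 ± 0.15.

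**Figure D4:**
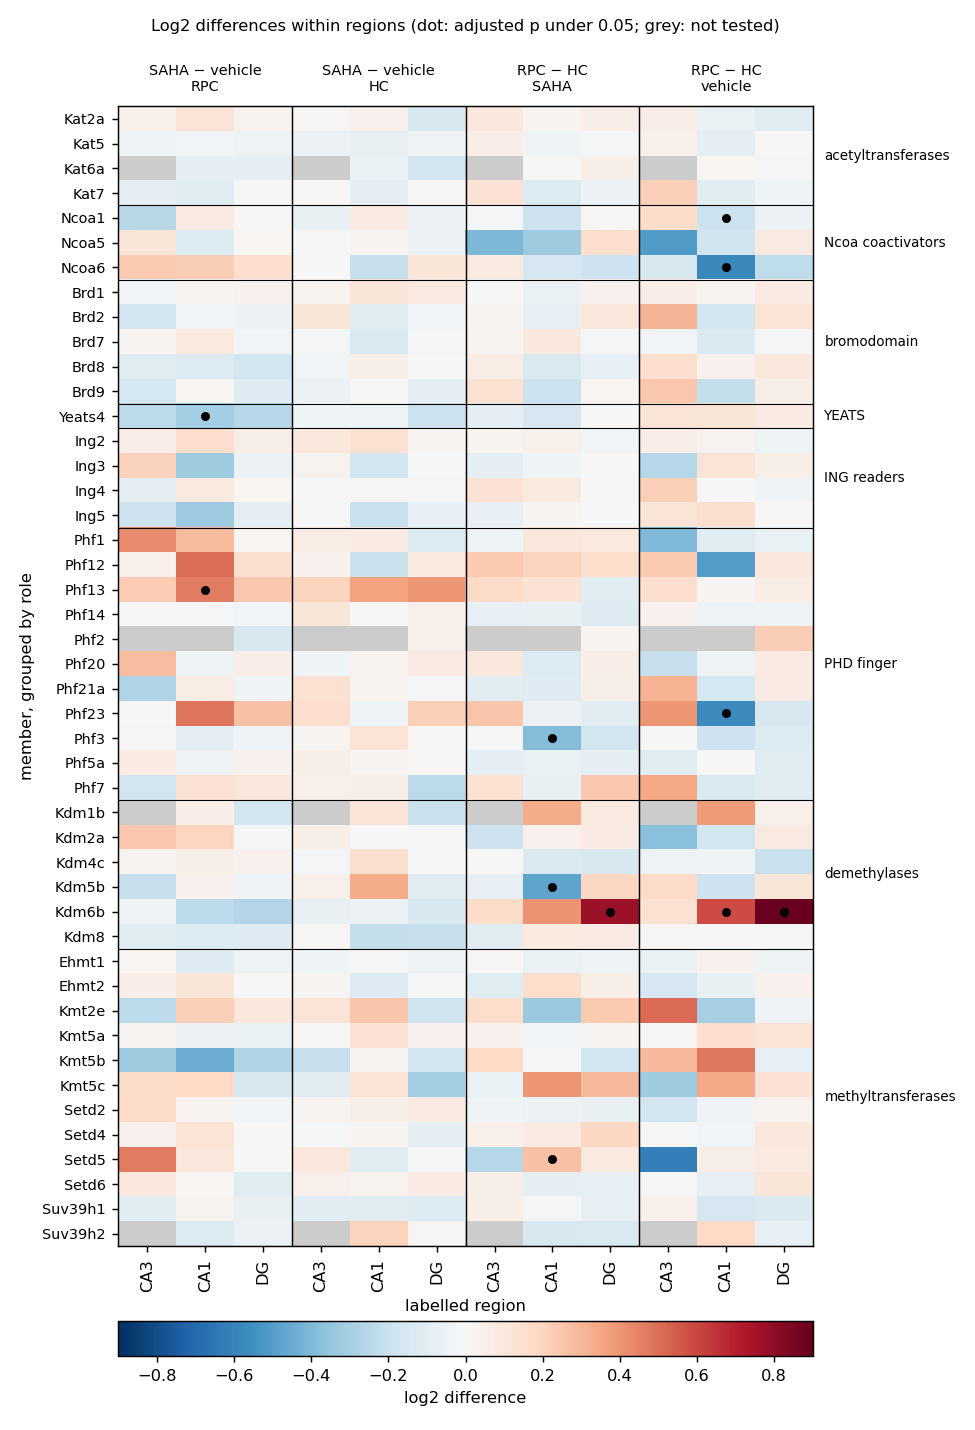
Log2 difference (colour) of each of the 46 members (rows, grouped by role) in 4 comparisons and 3 labelled regions (columns); a dot marks an adjusted p under 0.05 and grey marks a member not tested there. The dots are 3 for Kdm6b and 1 each for 8 other members, and 9 of the 11 stand in labelled CA1.

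None of the 4 acetyltransferases, 5 bromodomain genes or 4 ING genes was called in any of these 4 comparisons in the main setting, where 0 to 6.44% of all probes were called. Under alternatives some were: with array weights Ing3 and Ing5 for SAHA in RPC rats of labelled CA1 (limma, adjusted p = 0.0446 and 0.0472) and Brd9 for the maze in SAHA rats of labelled CA1 (limma, adjusted p = 0.0468), and with the random block Brd2, Brd9 and Kat7 in vehicle rats of labelled CA3, as given above. Over the regions, the log2 differences of Kat5 ran between -0.08 and 0.06, those of Kat2a between -0.14 and 0.12, those of Kat6a between -0.16 and 0.05 and those of Kat7 between -0.12 and 0.22. Brd2 ran between -0.17 and 0.31. Among the H3 methyltransferases, Ehmt1 ran between -0.11 and 0.04, Ehmt2 between -0.15 and 0.16, Suv39h1 between -0.15 and 0.05, and Setd2, which marks transcribed genes, between -0.18 and 0.17. All of these lie closer to 0 than any of the 3 called differences of Kdm6b. Other chromatin genes came from lists of COMPASS, acetyltransferase complex, Polycomb, elongation, CoREST and NuRD genes and further writers and erasers. Of these, 71, 72 and 73 were tested in labelled CA1, CA3 and DG. In labelled CA1 of vehicle rats, 3 of 71 were called after the maze, against 6.44% of all probes. The elongation gene Mllt3 was at 0.41 ± 0.10, the Polycomb gene Cbx7 at 0.21 ± 0.06 and the COMPASS gene Dpy30 at -0.20 ± 0.05. In SAHA rats, Taf6l, of an acetyltransferase complex, was called in labelled CA1 at 0.35 ± 0.09, and Ccnt2, a cyclin of elongation, in labelled DG at 0.40 ± 0.10. There 2.51% and 1.45% of all probes were called. The averaged RPC contrast called 6 of 71 higher and 6 lower in labelled CA1, against 13.7% of all probes. In labelled DG it called 2 of 73 higher and 2 lower, against 4.05%. None was called for SAHA against vehicle.

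Between regions most members differed, each by less than 2-fold. Labelled CA3 differed from labelled CA1 in 33 of 46, 9 higher and 24 lower, against 80.7% of all probes (40.8% higher and 39.9% lower). Labelled CA3 differed from labelled DG in 28, 7 higher and 21 lower, against 75.4% of all probes (39.3% higher and 36.1% lower). The lower members of both comparisons include Phf2, Kat6a, Suv39h2, Kdm1b and Ncoa5. These were detected on 0, 1, 1, 1 and 11 of 28 arrays in labelled CA3, so their differences rest partly on signals at background. Labelled CA1 differed from labelled DG in 28, 16 higher and 12 lower, against 72.4% of all probes (36.3% higher and 36.1% lower). The median size of a difference over the members was 0.27, 0.18 and 0.16 in these 3 comparisons, against 0.33, 0.27 and 0.25 over all probes. While 0 of 46 members passed 2-fold in any of them, 9.53%, 6.12% and 4.60% of all probes did.

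The direction of these differences depends on how arrays are scaled. With median scaling the median over all probes stood at 0.38 for labelled CA3 against CA1, 0.20 for labelled CA3 against DG and -0.19 for labelled CA1 against DG, where it was 0.00, 0.02 and 0.00 in the main setting. The members' calls were then 29 higher and 7 lower, 18 higher and 10 lower, and 4 higher and 26 lower. Those of all 11403 probes were 7554 higher and 2035 lower, 6182 higher and 2791 lower, and 2021 higher and 6278 lower. Of the members called in the main setting, 18 of 33, 19 of 28 and 23 of 28 kept their sign. Relative to the median of all probes, 30 of 33, 26 of 28 and 28 of 28 did. The levels below are those of the main setting, where arrays share 1 distribution of values.

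Of 12 methyltransferases, 9 were lower and 2 higher in labelled CA3 than in labelled CA1, with a median of -0.36, where 39.9% of all probes were lower and the median of all was 0.00. With median scaling 6 of the 9 turned in sign, Ehmt1, Ehmt2, Kmt5a, Setd2, Setd5 and Setd6, and Kmt5b, Kmt5c and Suv39h2 did not. Suv39h2 was detected on 1 of 28 arrays in labelled CA3 and 11 of 28 in labelled CA1, so its difference rests on signals at background. Kmt5c was lowest at 9.78, median 10.31 and highest at 10.65 in labelled CA3 (28 arrays), against 10.77, 11.29 and 11.78 in labelled CA1, with no overlap, and 9.68, 10.85 and 11.20 in labelled DG. Its difference was -0.99 ± 0.06 for labelled CA3 against CA1 (limma, adjusted p = 1.71e-25), and 0.48 ± 0.06 for labelled CA1 against DG. Kmt5b, its close relative, was lower in labelled CA3 by 0.77 ± 0.08 against CA1. Ehmt2, which methylates histone H3 together with Ehmt1, was lower in labelled CA3 and CA1 than in labelled DG, at -0.54 ± 0.04 and -0.43 ± 0.04. Ehmt1 was highest in labelled CA1, where the difference of labelled CA3 and CA1 was -0.38 ± 0.03 but turned to 0.15 with median scaling.

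Among acetyltransferases, Kat7, which acetylates histones H3 and H4, was at 9.95, 10.19 and 10.56 in labelled CA3, against 9.48, 9.68 and 10.09 in labelled CA1 and 9.75, 9.99 and 10.31 in labelled DG. It was higher in labelled CA3 by 0.50 ± 0.04 against CA1 and 0.20 ± 0.04 against DG. Kat6a was detected on 1 of 28 arrays in labelled CA3 and 13 of 28 in labelled CA1. Its fitted difference of -0.64 ± 0.05 therefore rests on signals at background in labelled CA3 and is no measured fold. Kat5, the catalytic subunit of a large acetyltransferase complex, was lower in labelled CA3 than in labelled DG, at -0.31 ± 0.03, and turned to 0.09 with median scaling.

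Phf20, a subunit of an acetyltransferase complex, had the largest difference of labelled CA1 and DG, at 8.57, 8.85 and 9.15 in labelled CA1 and 9.37, 9.61 and 10.27 in labelled DG. These did not overlap, and the difference was -0.79 ± 0.08 (limma, adjusted p = 2.53e-15). In labelled CA3 it ran between 7.44 and 9.93. Against labelled DG, labelled CA1 also had less Ing3, of an acetyltransferase complex, at -0.52 ± 0.09, and more Ing2, of a deacetylase complex, at 0.31 ± 0.04. In the same comparison the coactivators Ncoa6 and Ncoa1 were higher, at 0.44 ± 0.08 and 0.40 ± 0.06.

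Among demethylases, Kdm1b, which acts on histone H3, was detected on 24 of 28 arrays of labelled DG but 1 of 28 of labelled CA3. Its fitted difference of -0.81 ± 0.08 likewise rests on signals at background in labelled CA3. Kdm4c was lower in labelled CA3 than in CA1, at -0.53 ± 0.06. Over all groups Kdm6b was lower in labelled CA3 than in CA1 and DG, at -0.31 ± 0.06 and -0.32 ± 0.06, values that include the RPC rats in which it was higher in those 2 regions. Of the 46 members, 15 differed in all 3 pairs of regions, 20 in 2, 4 in 1, and 7 in 0. Kat2a and Kdm5b were among the 7. No such count was made over all probes, of which 72.4% to 80.7% were called per pair, so the members cannot be set against it.

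**Figure D5:**
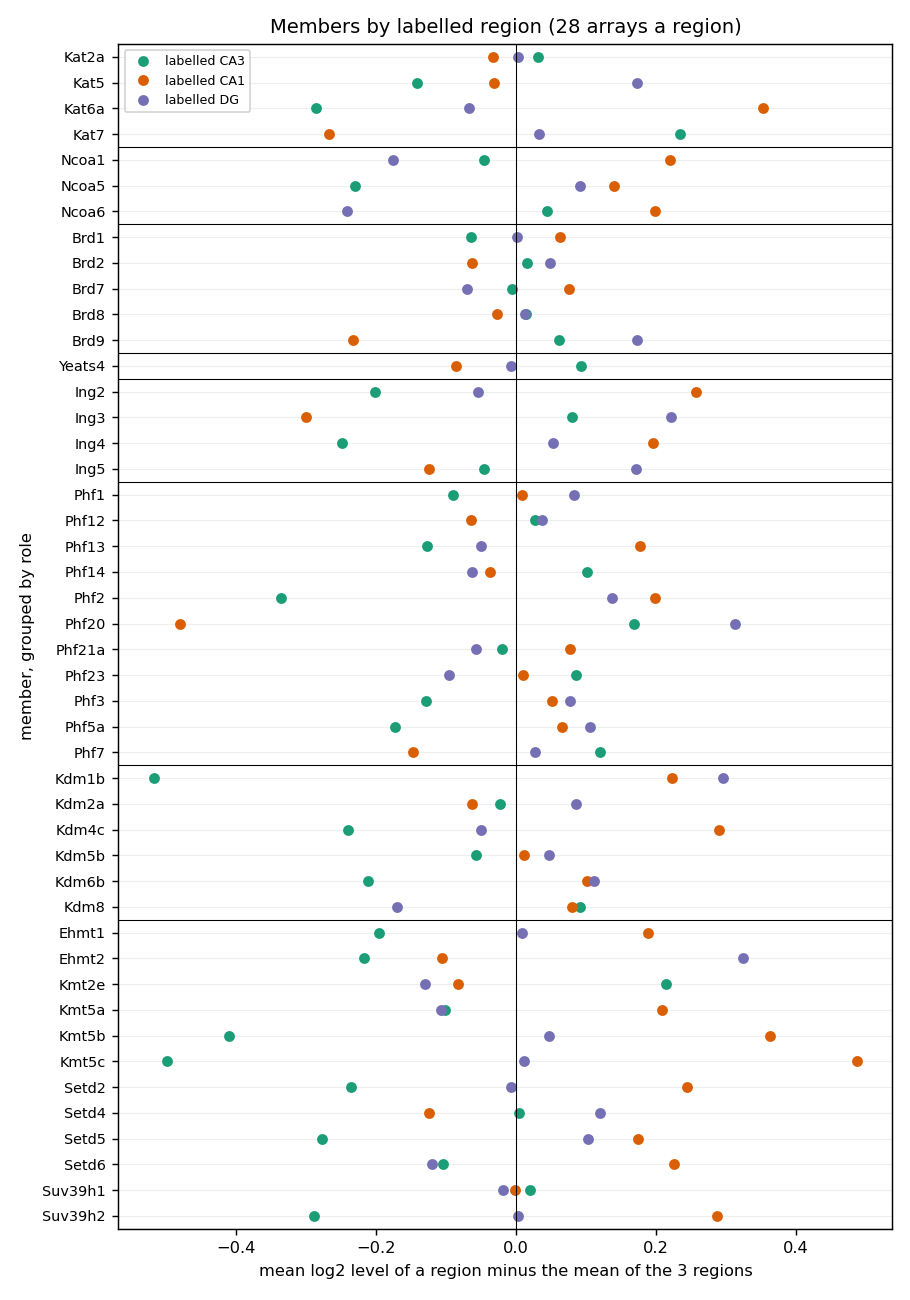
Mean log2 level of each member (rows, grouped by role) in samples labelled CA3, CA1 and DG (28 arrays each, coloured points), minus its mean over the 3 regions (x axis). Kmt5c lies far to the low side in labelled CA3 and Phf20 in labelled CA1. Kdm1b and Kat6a also lie low in labelled CA3, where each was detected on 1 of 28 arrays.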

How the data were processed

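Illumina bead arrays measured RNA, 1 array for each region and rat. Per the file headers, the deposited signal table holds an average signal intensity and a detection p-value per probe and array, without normalization; the submitters' processing notes name GenomeStudio 2011.1. The authors' deposited table of normalized values holds a z-type score per probe, which equals the log10 signal centred and scaled within each array (largest difference 0.013); this deposited score was an alternative. Detection p-values written as 0.0100 were read as 0, since the next lowest deposited p-value was 0.0012. Signals were corrected with normexp (negative controls inferred from detection p-values, offset 16), quantile normalized over 84 arrays and put on the log2 scale, then fitted with limma 3.58.1 in R 4.3.3. Within a region the 4 groups were fitted together, using probes detected on at least 7 of its 28 arrays. Regions were compared over 84 arrays. P-values were adjusted by Benjamini-Hochberg over all probes tested. Scripts were tested on simulated data. Named genes were every called member of a comparison within a region, or the 3 of smallest p where none was called, the 5 largest called region differences each way, of which examples are given, and 32 fixed names, of which 15 are members. Members and lists were chosen with earlier results of these data known. The number of arrays limits the precision, and no columns were left out. Same-numbered arrays had mean correlations between -0.21 and 0.17 over 12 pairs of groups within a region, which are different rats. Between regions of the same drug and behaviour group, the means ran from -0.087 to 0.13 over 12 pairs. Replicate numbers were not used as pairs in the main setting, and its tests over 84 arrays held no term for the rat. Alternatives were median scaling, no background correction, the z-scores, other filters, array weights, arrays left out and a replicate block; the averaged contrasts and a second cut for low correlation were added after results had been seen. Promoters are from RefSeq.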

Additional observations from a re-analysis of the deposited data

Results flagged for a closer look

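In vehicle rats the effect of the maze differed among the 3 regions in the limma F test for Kdm6b (adjusted p = 0.0119), Phf23 (0.0218), Phf12 (0.0252), Brd2 (0.0320), Kmt5c (0.0341) and Brd9 (0.0442), and these were picked out because the difference between regions was itself tested. For Kdm6b the RPC effect was 0.14, 0.58 and 0.89 in labelled CA3, CA1 and DG.

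In SAHA RPC rats of labelled CA1, replicate 1 had the lowest Phf13, 8.522, where the next was 9.111, and the highest Yeats4, 10.325, where the next was 10.004. Each lay farther from the other 6 arrays than Dixon's 95% limit. Of 22 groups checked, 2 had such an array, and chance gives about 1 in 20.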

How the results depend on the processing

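For the difference of the RPC effect among regions, each fit left out the same-numbered arrays of a group in all 3 regions. The count of called members then ran between 0 and 10. Leaving out 1 array at a time, the count ran between 1 and 5 for SAHA rats of labelled CA1 between RPC and HC, and 3 and 4 in vehicle rats. It ran between 0 and 2 for SAHA against vehicle in RPC rats of labelled CA1, and 0 and 1 in RPC and in HC rats of labelled DG. For the averaged RPC contrast it ran between 7 and 11 in labelled CA1 and 1 and 2 in labelled DG, and for SAHA against vehicle averaged in labelled CA1 between 1 and 2. The test among regions called 6 members, and 10 with array weights, 3 with no filter, 0 with median scaling and 0 without arrays of low correlation, whether 11 were left out or the 8 beyond a wider, scaled deviation added after the first had been run. For RPC against HC in labelled CA1, SAHA rats had 3 calls, 6 with array weights, 1 with no filter and 5 without arrays of low correlation by either cut, and vehicle rats had 4, 7 with weights and 1 with median scaling. In vehicle rats of labelled CA3, 0 became 1 with weights and 7 with a random replicate block over all 84 arrays. For SAHA against vehicle, RPC rats of labelled CA1 had 2 calls, 4 with weights, 1 with z-scores, and 0 with median scaling, no filter, a replicate block and either cut of low correlation; HC rats of labelled DG had 1 without the 11 arrays. The averaged RPC contrast had 9 calls in labelled CA1 and 3 with median scaling, 8 in labelled CA3 with the random block where the main setting had 0, and 1 in place of 2 in labelled DG with z-scores, median scaling, no filter or either block. The averaged SAHA contrast had 0 with median scaling and 2 with the random block in place of 1 in labelled CA1, 1 with weights in place of 0 in labelled CA3, and in labelled DG 4 with weights, and 1 with median scaling or the random block, in place of 2. The cause of these changes was not tested, and the share of all probes called with the random block was not counted.

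In 0 of 12 comparisons between groups of a region did all 7 same-numbered arrays correlate over 0.1, and in 0 of 12 between regions of the same group. The labels do not state whether same-numbered arrays of different regions come from the same rat. Within a region, same-numbered arrays of different groups are different rats, so the replicate block there follows no pairing given by the labels. The replicate block left the 3 calls of Kdm6b, with a largest adjusted p of 0.0105, and ended those of Phf13 and Yeats4 for SAHA in RPC rats and of Ncoa1 in vehicle rats of labelled CA1, and of the averaged RPC contrast for Phf23 in labelled CA1 and Kdm4c in labelled DG (adjusted p between 0.0603 and 0.0876). The averaged SAHA calls of Phf13 and Yeats4 were kept. Among all called members, signs turned with median scaling for 15 in labelled CA3 against CA1, 9 in labelled CA3 against DG and 5 in labelled CA1 against DG, and with z-scores for 1, 1 and 0. For the named genes, only turns with a call in the main setting, the alternative or both are listed. With median scaling signs turned for labelled CA3 against CA1 in Ehmt1 (0.15), Ehmt2 (0.40), Kat5 (0.49), Ncoa1 (0.33), Phf13 (0.14) and Setd2 (0.0521). For labelled CA3 against DG they turned in Brd2 (0.30), Ehmt1 (0.0913), Kat5 (0.0921) and Setd2 (0.0649). For labelled CA1 against DG they turned in Ehmt1 (-0.0544), Phf13 (-0.0531), Phf23 (-0.17) and Suv39h1 (-0.25). With z-scores they turned in Phf23 for labelled CA3 against DG (-0.005) and Suv39h1 for labelled CA1 against DG (-0.0718), and without the 11 arrays in Phf23 for labelled CA3 against DG (-0.0153). Fits that left out arrays 1 at a time or by replicate number are not counted here. In the other settings 3579 values kept their direction and side of the threshold, 96 lost a call and 42 gained one. The sign turned in 17 with a call in the main setting, the alternative or both, and in 192 with a call in neither.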
